A study of Mus musculus with 5 samples.

Results

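Among the stellate cells sorted from livers of mice given a carcinogen and a Western alcohol diet, a small group carried most of the Ccl2, Ccl7, Cxcl2 and Cxcl5 transcripts. It was chosen from the library labelled VitA+Col1a1+ DEN+WAD by a rule on measured values. A cell entered the gate with 5000 or more UMIs (unique molecular identifiers, 1 per captured RNA molecule), at least 1 UMI of Lrat and 0 UMIs of Pecam1 and of Ptprc. Lrat, whose enzyme turns retinol into its storage form, marks hepatic stellate cells (HSC), while Pecam1 marks endothelium and Ptprc leukocytes. The score of a cell was its summed UMIs of Cxcl2, Cxcl5, Ccl2, Ccl7 and Tnfaip3 per 10000 UMIs, and the chemokine-high HSC were the top 4% of gated cells by score. This gave 396 cells of 9912 gated cells, of 10481 cells in the library and of 24007 cells in the series. They were set against the lower 50% of gated cells by score, 4956 cells referred to as low-score HSC.

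The series held 5 droplet single-cell RNA libraries of sorted liver cells, 1 library per group. The mice were male Rosa26mTmG;Col1a1-Cre animals on a C57BL/6J background, in which a Cre recombinase driven by the Col1a1 promoter turns on green fluorescent protein (GFP). Groups with DEN+WAD had received diethyl nitrosamine at 10 mg/kg at 2 weeks of age and, from 6 weeks, a liquid Western diet with 3.5% ethanol by volume for 5 months, and chow groups had received saline and chow. Cells were sorted by GFP (Col1a1+ or Col1a1-) and by the autofluorescence of stored vitamin A (VitA+ or VitA-), which gave VitA+Col1a1+ and VitA-Col1a1+ libraries from both treatments and a VitA-Col1a1- library from DEN+WAD. All 5 groups carried the reporter and the Cre, and the GFP marks cells in which the Col1a1 promoter has been active at any time. How many mice stand behind a library is not given in the sources used here. With 1 library per group there was no replicate, so every interval below covers counting error only and no test was run.

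HSC are the vitamin A-storing pericytes of the liver sinusoid and, when activated, its main source of collagen. They also secrete chemokines, small proteins that draw leukocytes through receptors on those cells: Ccl2 and Ccl7 act on monocytes through Ccr2, Cxcl1, Cxcl2 and Cxcl5 on neutrophils through Cxcr2, and Cxcl9 and Cxcl10 on T and NK cells through Cxcr3. Many of these genes are targets of NF-kB, a family of dimeric transcription factors held in the cytoplasm by IkB proteins such as Nfkbia and freed by signals from receptors for tumor necrosis factor, interleukin-1 and microbial products. NF-kB also raises its own brakes, among them Nfkbia and Tnfaip3, which encodes the deubiquitinase A20.

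The library held 149936344 UMIs, and its gated cells had a median of 13346 UMIs. Of its other cells, 268 had under 5000 UMIs, 169 had 5000 or more UMIs but no Lrat, and 280 held a Pecam1 UMI. Ptprc, Cd3e and Il1b were at 0 in every cell of the 4 Col1a1+ libraries, whereas the library labelled VitA-Col1a1- held 9342, 461 and 9669 UMIs of them. Whether cells with these genes had been removed before deposit is not given in the sources used here, so an absence of Ptprc says nothing further about the gate. Between 1 and 21 barcodes of the library recurred in each of the others, and 1 of the 396 cells had such a barcode. The library labelled VitA-Col1a1- went against its name, since its gated cells had Col1a1 at 1907 CPM (UMIs per 1000000 UMIs), against 303 CPM here. It is called by its label throughout.

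The HSC label held for the chemokine-high cells. Of 12 HSC marker genes, none was at 0 in them, their summed level was 47550 CPM against 54442 CPM in low-score HSC, and the median ratio over the list was 0.860. Reln, a secreted glycoprotein of HSC, stood at 999 CPM against 1237 CPM, and Lrat, which the gate used, at 1236 CPM against 1587 CPM. Markers of leukocytes were near 0 in the deposited cells. The 12 macrophage markers summed to 4.19 CPM against 4.45 CPM, with any UMI of them in 5.81% of chemokine-high and 5.21% of low-score HSC and 7 of the 12 at 0 in the former. Adgre1, which encodes the macrophage protein F4/80, had 0 UMIs in the 9912 gated cells, a limit of 0.0303% of cells with a UMI. Whether cells with Adgre1 had been removed before deposit is not known. Like that of Ptprc, this 0 thus says nothing further about the HSC label. The 7 neutrophil markers summed to 0.483 CPM against 0.185 CPM, the 7 T or NK cell markers to 0 against 0.285 CPM, and the 5 B or plasma cell markers to 0.161 CPM against 0.114 CPM. The groups were of like depth, with medians of 14235 and 13186 UMIs and of 3663 and 3611 genes per cell, and mitochondrial transcripts made up 2.68% and 2.81% of their UMIs. No doublet caller was run. Cells above 2 times the median UMIs numbered 26 of the 396 chemokine-high and 146 of the 4956 low-score HSC, a larger share of the former.

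The values that chose the cells are given as a description. Ccl2 dominated the score. It was present in all 396 chemokine-high HSC and supplied 81.6% of their score UMIs, with 8309 CPM against 15.7 CPM in low-score HSC, and per cell it ranged from 0.377 to 478 UMIs per 10000 with a median of 59.0. Low-score HSC with a Ccl2 UMI made up 21.3%, against 22.2% of the 135 cells of the library that held Pecam1 and no Lrat (median depth 8880 UMIs), which held 38.6 CPM of Ccl2. Ccl7 stood at 838 CPM against 2.62 CPM and was found in 64.9% of chemokine-high HSC. Cxcl2 stood at 817 CPM against 2.35 CPM and was found in 48.5%, with 32.1% of its UMIs in 10 cells. Cxcl5 reached 142 CPM against 0.413 CPM in 24.2% of the cells, and 54.0% of its UMIs came from 10 cells. Tnfaip3 stood at 79.5 CPM against 2.48 CPM and was found in 51.5%. The 396 cells, 4% of the gate, held 57.6% of all gated Ccl2 UMIs and 69.0% of all gated Cxcl5 UMIs.

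The cells differed in which score genes they held. All 5 were detected in 41 cells, 4 in 86 cells, 3 in 106 cells, 2 in 115 cells and 1 in 48 cells. Ccl2 was the most abundant score gene in 375 cells and Cxcl2 in 16. The score had no gap at the boundary. The lowest 3 members scored 38.6598, 38.6493 and 38.6473, and the highest 3 cells outside scored 38.3761, 38.1877 and 38.1623. The median member scored 68.5, the highest 614 and the median gated cell 0.884, and 34.4% of gated cells scored 0.

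Each score gene was also measured in cells chosen without it. When the score left out Cxcl2, the new top 4% held 661 CPM of Cxcl2 against 17.0 CPM in the lower 50%, a ratio of 38.9 (95% interval 36.4 to 41.5). For Cxcl5 the ratio was 88.3 (70.9 to 111), for Ccl7 55.3 (51.7 to 59.3) and for Tnfaip3 13.3 (11.6 to 15.2). Without Ccl2 in the score, the cells differed most from the members, of whom they shared 199 of 396, and Ccl2 still stood at 5389 CPM against 232 CPM, a ratio of 23.2 (22.8 to 23.7). All 5 genes were thus higher in cells picked by the other 4.

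Beyond the score genes, 9350 genes averaged 5 CPM or more over the 2 groups and were compared. A gene was called where the ratio of chemokine-high to low-score HSC was 1.5 or more, or its inverse, and the exact 95% interval of the ratio left out 1. By this measure 462 genes were higher, 4.94% of those compared, and 284 were lower, 3.04%. The median ratio over all 9350 genes was 0.971. The groups were cut from a score of the same cells, so these counts describe how other genes went with the score and are not a test. A gene under 5 CPM in low-score HSC passed the filter only if higher in chemokine-high HSC, and the reverse. Among list genes called higher below, Cxcl3, Ccl11, Lif, Il11, Gch1, Plaur, Fosl1, Egr3, Ptgs2, Il17ra, Cish, Elovl6 and H2-Ab1 were of the first kind. Their calls are a description. With the highest cell of each gene left out of each group, an alternative chosen after seeing the data, 401 genes were higher, all of them among the 462, and 388 were lower, of which 274 were among the 284.

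The other chemokines went with the score. Of 11 compared, 7 were higher and none lower, with a median ratio of 7.22. Cxcl3 and Ccl11 passed the filter only through chemokine-high HSC and could only be called higher. Cxcl10 stood at 2203 CPM against 66.9 CPM, a ratio of 32.9 (31.9 to 34), and was found in 78.5% of chemokine-high and 22.8% of low-score HSC. Cxcl1 stood at 2428 CPM against 312 CPM (ratio 7.78, 7.62 to 7.95) and was found in 90.9% against 58.9%. These were the broad members of the set, each with no more than 4.80% of its UMIs in any cell. Cxcl9 stood at 215 CPM against 11.1 CPM (ratio 19.4, 17.8 to 21.3) and was found in 10.4% of the chemokine-high HSC. Endothelial cells are known to make both interferon-type chemokines, and the 135 Pecam1 cells without Lrat held 325 CPM of Cxcl9 and 304 CPM of Cxcl10. The 9 endothelial markers summed to 89.4 CPM in chemokine-high and 133 CPM in low-score HSC. Cxcl16, a membrane-bound ligand of Cxcr6, was 2.04-fold higher (1.93 to 2.16). Ccl5 (ratio 7.22), Ccl11 (15.6), an eosinophil attractant, and Cxcl3 were called but rested on few cells: the highest cell held 61.5%, 77.7% and 86.6% of their UMIs, and without it Ccl5 and Ccl11 had ratios of 3.12 and 3.70. Cxcl12, which retains hematopoietic cells through Cxcr4 and is made by HSC at rest, did not follow, at 3074 CPM against 4333 CPM (ratio 0.709), and Cxcl14 stood at 442 CPM against 347 CPM (ratio 1.27); neither passed the 1.5-fold limit.

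Most of the chemokine genes higher in these cells lie in gene clusters on chromosomes 5 and 11. In GRCm38 coordinates, Cxcl5 (chr5:90759360-90761624), Cxcl3 (chr5:90786103-90789600), Cxcl1 (chr5:90891241-90893115) and Cxcl2 (chr5:90903871-90905938) follow each other on the forward strand of chromosome 5, and Cxcl9 (chr5:92321347-92328079) and Cxcl10 (chr5:92346638-92348889) lie further along on the reverse strand. Ccl2 (chr11:82035571-82037453), Ccl7 (chr11:82045712-82047525) and Ccl11 (chr11:82057823-82062955) are adjacent on the forward strand of chromosome 11. Ccl5 (chr11:83525778-83530518) and Cxcl16 (chr11:70453983-70459984) lie elsewhere on that chromosome.

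The signalling receptors for these ligands were at or near 0 in the cells. Ccr2 and Cxcr3 had 0 UMIs in all 9912 gated cells, a limit of 0.0303% of cells with a UMI for each, and Cxcr2 had 30 UMIs in 29 cells. Whether cells with Ccr2 or Cxcr3 had been removed before deposit is not known. Their 0 values thus describe the deposited cells only. Of the 3 receptor genes abundant enough to compare, the scavenging receptors Ackr3 (ratio 0.611) and Ackr4 (0.423) were lower in chemokine-high HSC, although Ackr3 turned to 1.21 without Ccl2 in the score and to 1.6 with the score genes weighted equally, and Ackr1 was at 37.8 CPM against 42.0 CPM.

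NF-kB subunits, inhibitors and feedback genes were higher almost as a block. Of 19 compared, leaving Tnfaip3 out, 15 were higher and none lower, with a median ratio of 2.66, and their summed level was 3458 CPM against 1112 CPM, a ratio of 3.11 (3.06 to 3.16). Nfkbia, the IkB-alpha inhibitor, was the most abundant at 1626 CPM against 343 CPM (ratio 4.74, 4.63 to 4.85) and was present in 99.5% of the chemokine-high HSC. Among the subunits the precursors Nfkb2 (ratio 4.94) and Nfkb1 (2.97) and the subunits Relb (3.68), Rel (2.58) and Rela (1.81) were all higher. Among other genes of the IkB family, Nfkbie had a ratio of 4.03, Nfkbib 2.66, Bcl3 5.40 and Nfkbiz 1.84. Of the brakes, Tnip1 had 5.35 and Tnip2 1.58, and among the ubiquitin ligases of the pathway Birc3 had 4.26 and Birc2 2.25. Tnfaip2 had the highest ratio of the list, 9.40, at 108 CPM against 11.4 CPM, in 30.6% against 9.34% of cells. The 4 not called were Map3k8 (1.42), Traf2 (1.30), Tnfaip8 (1.05) and Cyld (1.02). Without the highest cell of each gene, all 15 calls remained.

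Most genes known as NF-kB targets in other cells were higher too. Of 17 compared, 10 were higher and none lower, with a median ratio of 2.57. The other 7 were not called, and the lowest ratio was 0.800. The leukocyte adhesion molecules Vcam1, at 1100 CPM against 308 CPM (ratio 3.58, 3.48 to 3.68), and Icam1, at 492 CPM against 83.7 CPM (ratio 5.88, 5.63 to 6.14), were found in 98.2% and 91.7% of the chemokine-high HSC. Sdc4, a syndecan, stood at 969 CPM against 371 CPM (ratio 2.61). Gch1, the first enzyme of tetrahydrobiopterin synthesis, and Plaur, the urokinase receptor, were low in both groups but had ratios of 15.2 (11.5 to 20.0) and 14.2 (11.4 to 17.8). Both passed the filter only through chemokine-high HSC and could only be called higher. The others called were Irf1 (4.07), Zc3h12a (2.96), a ribonuclease that degrades cytokine transcripts, Cd40 (2.72), Sod2 (2.57), the mitochondrial superoxide dismutase, and Slc11a2 (1.91).

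Of the receptors and adaptors that feed NF-kB and related pathways, 7 of 21 were higher and none lower, and the median ratio was 1.09. The largest ratios were those of Ripk2 (4.52), the kinase downstream of NOD receptors, and Tlr2 (4.50), which recognizes bacterial lipopeptides, at 68.1 CPM against 15.1 CPM. Il17ra (1.81), Ifngr2 (1.78), Ifngr1 (1.6), Osmr (1.56) and Irak2 (1.54) were just over the limit. The receptors of tumor necrosis factor and interleukin-1 were close to even, with Tnfrsf1a at 293 CPM against 286 CPM and Il1r1 at 98.7 CPM against 93.8 CPM, and Tlr4 stood at 9.82 CPM against 10.5 CPM.

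Cytokine and growth factor genes of inflammation were higher in 6 of 7 cases. Of these, Lif and Il11 passed the filter only through chemokine-high HSC and could only be called higher. Csf1, the growth factor of macrophages, stood at 457 CPM against 152 CPM (ratio 3.01, 2.89 to 3.14) and was found in 98.0% of chemokine-high HSC. Il34, the other ligand of the Csf1 receptor, stood at 227 CPM against 139 CPM (ratio 1.64). Lif was rarer, at 10.5 CPM against 1.05 CPM (ratio 9.93, 7.0 to 14.0), Tslp had a ratio of 3.22 and the alarmin Il33 2.43. Il11 had a ratio of 52.3, but 76.7% of its UMIs came from the highest cell and without that cell the ratio was 13.0. Il6 was too low to compare, at 1.45 CPM against 0.513 CPM. Ptgs2, the inducible cyclooxygenase, was the only gene called of 5 compared in the prostanoid and oxylipin list, at 26.4 CPM against 4.0 CPM (ratio 6.6, 5.41 to 8.03). Cyp1b1 was below the level needed for the comparison, at 3.06 CPM against 5.53 CPM.

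Interferon-response genes were higher in 8 of 19 cases and lower in none, with a median ratio of 1.47. Guanylate-binding proteins and immunity-related GTPases led: Gbp2 stood at 319 CPM against 84.4 CPM (ratio 3.78), Iigp1 at 739 CPM against 273 CPM (2.71), and Igtp and Gbp3 had ratios of 2.43 and 2.09. Rsad2 (1.97), Ifit1 (1.58) and Ifit3 (1.52) were among the others. In the antigen presentation and complement list 3 of 15 were higher, the checkpoint ligand Cd274 (3.03), the peptide transporter Tap1 (1.92) and H2-Ab1 (1.78), and the median ratio was 1.02. Of 9 genes of the STAT3 and acute phase list, 3 were higher, Serpina3g (8.51), Pim1 (3.11) and Cish (2.76), while the feedback inhibitor Socs3 stood at 308 CPM against 358 CPM.

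HSC identity genes were mostly level with a few lower. In the HSC marker list none of 12 was higher and 2 were lower, the transcription factors Hand2, at 223 CPM against 381 CPM (ratio 0.584, 0.553 to 0.617), and Lhx2, at 258 CPM against 418 CPM (0.618, 0.587 to 0.650). Lhx2 is known to restrain HSC activation. Of 25 genes of retinoid storage and quiescence, 2 were higher and 3 lower, and the median ratio was 0.797. The retinoic acid receptor Rara was lower (0.637) and the retinol dehydrogenase Rdh10, which makes retinal from retinol, was higher, at 115 CPM against 20.2 CPM (5.67, 5.18 to 6.21). Ngfr, the low-affinity neurotrophin receptor, was also higher (1.68).

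Collagen genes did not go with the score. Of 24 collagen and matrix genes 1 was called, the matrix glycoprotein tenascin C (Tnc), at 83.2 CPM against 18.1 CPM (ratio 4.60, 4.14 to 5.10). Of the Tnc UMIs in chemokine-high HSC, 418 lay in the chemokine-led cluster described below and 99 outside it. The summed level of the list was 41806 CPM against 45020 CPM. Col1a1 stood at 303 CPM against 288 CPM and Col3a1 at 1186 CPM against 1124 CPM. Contractile genes were higher in 5 of 13 cases: Tagln stood at 1214 CPM against 594 CPM (2.05), Acta2, the smooth muscle actin, at 164 CPM against 86.6 CPM (1.90), and Tpm1 (1.67), Myh11 (1.52) and Tagln2 (1.51) were near the limit. Acta2 was found in 14.6% of chemokine-high and 7.65% of low-score HSC. Without the highest cell of each gene 3 of the 5 kept their call, and none of the list was higher in all 3 DEN+WAD libraries. In the smooth muscle marker list, which shares Acta2 and Myh11, 3 of 4 were higher, the third being Synpo2 (1.63), and the list summed to 211 CPM against 120 CPM, with any UMI in 40.7% against 27.5% of cells. Without the highest cell 2 remained higher, and in the library labelled VitA-Col1a1- none of 6 was higher and 1 was lower. The part of smooth muscle cells in these values was not tested.

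Among matrix proteases and their inhibitors 4 of 15 were higher and 1 lower. The inhibitor Timp1 stood at 252 CPM against 47.1 CPM (ratio 5.36, 5.04 to 5.69). Of its UMIs in chemokine-high HSC, 1316 lay in the chemokine-led cluster described below and 252 outside it. Adamts4 (4.67) and Plat (1.59) were among the others higher, whereas Adamts5 was lower, at 73.4 CPM against 148 CPM (0.497, 0.451 to 0.546). The related aggrecanases Adamts4 and Adamts5 thus differed in direction. Among 18 TGF-beta and growth factor ligands, Ereg (2.69), Bmp2 (2.07), Tgfb2 (1.91) and Inhba (1.66) were higher and Tgfb3 (0.638) and Gas6 (0.501) lower. With equal weights Tgfb3 turned to 1.05 and Gas6 to 1.74, and without Ccl2 in the score Gas6 turned to 1.34. Of 15 senescence and p53 genes, Gadd45b (3.01) and Gadd45g (1.53) were higher. Of 14 genes of lipid metabolism and of interest to the study, the hyaluronan receptor Cd44 (3.25) and the fatty acid elongase Elovl6 (2.24) were higher and none was lower.

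Most genes known to respond to tissue dissociation were not called in this library. Of 12 heat shock genes none was called, with a median ratio of 1.05 and a summed level of 24645 CPM against 23594 CPM. Of 22 immediate-early genes 4 were higher and 1 lower, and the median ratio was 0.919. Over all genes compared, 4.94% were higher and 3.04% lower. Fos stood at 3304 CPM against 4559 CPM and Jun at 4616 CPM against 6007 CPM, both below low-score HSC. Those called higher were Fosl1 (5.05), Maff (2.17), Egr3 (1.79) and Myc (1.61), and Nr4a2 was lower (0.659), turning to 1.01 with equal weights. Fosl1 and Egr3 passed the filter only through chemokine-high HSC and could only be called higher. Apart from the smooth muscle list, marker lists of other liver cells held few genes to compare. Of 5 portal fibroblast genes compared, Mgp and Eln (0.40) were lower; the mesothelial gene Wt1 (0.345) and the endothelial gene Egfl7 (0.615), of 1 and 2 compared, were lower too. None of 3 cycling genes was called.

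Ranked by ratio alone, the 15 highest genes included several carried by 1 cell. Many of them reached the mean of 5 CPM only through the chemokine-high HSC, where they had to be the higher, so their ratios are a description. AA467197 and Serpinb2 had 95.1% and 100% of their UMIs in the highest cell, and with Cxcl3, Il11 and Ccl11 made 5 of the 15 in which that cell held most of the UMIs. The broader ones were Serpina3f, at 242 CPM against 15.7 CPM (ratio 15.4) in 53.8% of cells, the endothelial adhesion molecule Sele, at 32.4 CPM against 0.613 CPM (52.8, 37.8 to 75.3) in 13.4%, the T cell co-stimulatory ligand Icosl, at 13.8 CPM against 0.413 CPM (33.5, 21.8 to 53) in 13.4%, Rnd1 (12.6) and Olr1, the oxidized lipoprotein receptor (24.2). Without the highest cell 14 of the 15 kept their call, all but Serpinb2.

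The 10 lowest genes were mainly hepatocyte transcripts, and 7 of them lost their call without the highest low-score cell. They were Apoa1, Serpina1b, Igfbp1, Serpina1a, Rbp4, Ahsg and Apoa2. The 3 that kept it were Mgp (ratio 0.201), a matrix Gla protein of portal fibroblasts, the semaphorin receptor Plxna4 (0.230) and Clic5 (0.304). The direction of Mgp turned when the 5 score genes were weighted equally (ratio 6.56) or Ccl2 was left out of the score (2.96), and that of Plxna4 turned with equal weights (1.15). All 3 hepatocyte markers compared were called lower with the highest cell and none without it, and the 7 hepatocyte markers summed to 44.4 CPM against 197 CPM. The cholangiocyte gene Spp1, the only one of its list compared, had a ratio of 4.92, but 98.6% of its UMIs came from 1 cell and the ratio without that cell was 0.135.

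Gene levels were read along the whole score by splitting the gate into 5 ranges: the lower 50%, 50 to 75%, 75 to 90%, 90 to 96% and the top 4%. Nfkbia stood at 343, 487, 644, 869 and 1626 CPM from the lowest to the highest range, and Cxcl1 at 312, 513, 774, 1119 and 2428 CPM. Cxcl10 stood at 66.9, 104, 201, 454 and 2203 CPM, and the steepest step was the last. The summed NF-kB list stood at 1112, 1373, 1658, 2040 and 3458 CPM. Each of these was higher in every range than in the one below. The ranges were cut from the same score, so this order is a description. Hand2 went the other way, with 381, 351, 338, 307 and 223 CPM. The summed heat shock list was higher in each range up to 90 to 96% and lower again in the top 4%, at 23594, 24647, 25943, 27240 and 24645 CPM.

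**Figure D1:**
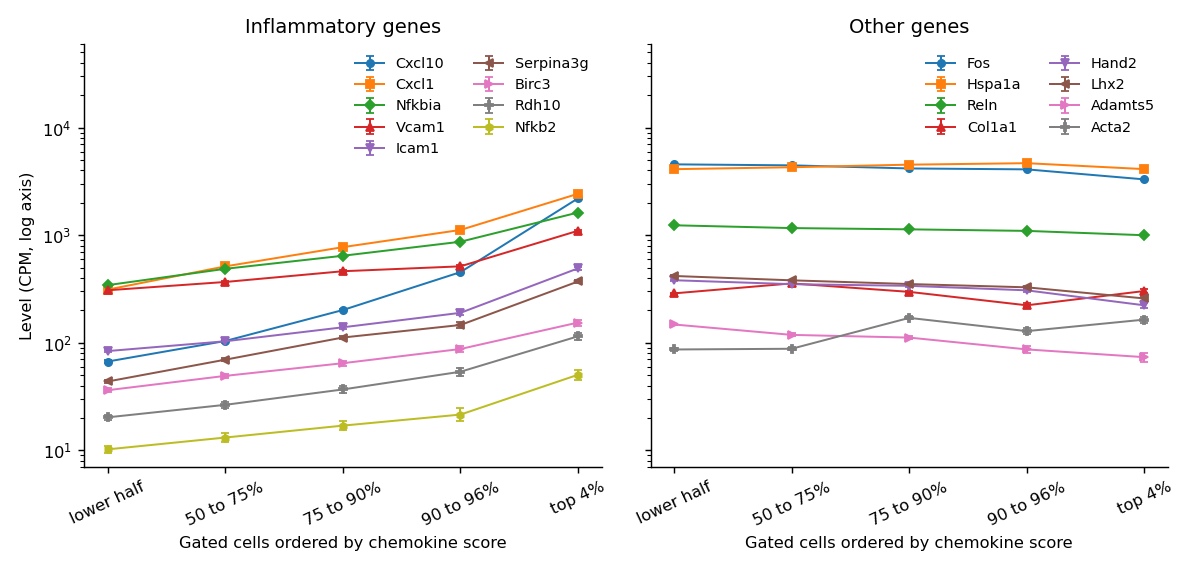
Level in CPM (log axis) along 5 ranges of the score in the gated VitA+Col1a1+ DEN+WAD cells, with exact 95% Poisson intervals. Cxcl10 goes from 66.9 to 2203 CPM and Nfkbia from 343 to 1626 CPM, while Hand2 goes from 381 to 223 CPM.

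The chemokine-high HSC were split when the gated cells were clustered on variable genes with the score genes left out. The gate gene Lrat was not left out. Of 15 clusters, 1 cluster of 343 cells, led by Cxcl9, Cxcl10, Ccl11, Serpina3f, Il11, Timp1 and Tnfaip2, held 163 of the 396 cells, so that 47.5% of its cells were chemokine-high. The other 233 were spread over the remaining 14 clusters, with 1 to 32 in each, including clusters led by heat shock genes, by interferon-response genes and by contractile genes. The cells inside the cluster had a median score of 108 and those outside a median of 58.0, and their median depths were 14999 and 13452 UMIs. Because the clusters were made from these genes, what follows is a description.

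Nfkbia and Cxcl1 were high in both. Nfkbia stood at 1786 CPM inside the cluster, 1500 CPM outside and 343 CPM in low-score HSC, and Cxcl1 at 2495, 2376 and 312 CPM. Nfkbiz was somewhat lower inside than outside, at 249 against 294 CPM. Other genes were found mainly inside. Cxcl10 stood at 4026 CPM inside and 780 CPM outside, and Cxcl9 at 457 CPM inside, 25.8 CPM outside and 11.1 CPM in low-score HSC. Cxcl5 stood at 270 CPM inside and 41.6 CPM outside, and Icosl at 27.6 and 3.15 CPM. Timp1 stood at 483 CPM inside and 72.2 CPM outside, and Tnc at 154 and 28.4 CPM. The 180 cells of the cluster that were not chemokine-high had Cxcl9 at 440 CPM, close to the chemokine-high cells of the cluster, but Ccl2 at 948 CPM against 11572 CPM and Nfkbia at 580 CPM against 1786 CPM. Timp1 and Tnc stood at 605 and 160 CPM in these 180 cells, no lower than in the chemokine-high cells of the cluster. The chemokine-high cells outside had Ccl2 at 5762 CPM with Hand2 at 270 CPM, against 163 CPM inside and 381 CPM in low-score HSC. The summed NF-kB ratio to low-score HSC was 3.59 inside and 2.73 outside, and the genes called higher numbered 860 and 239, a split chosen after seeing the data.

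**Figure D2:**
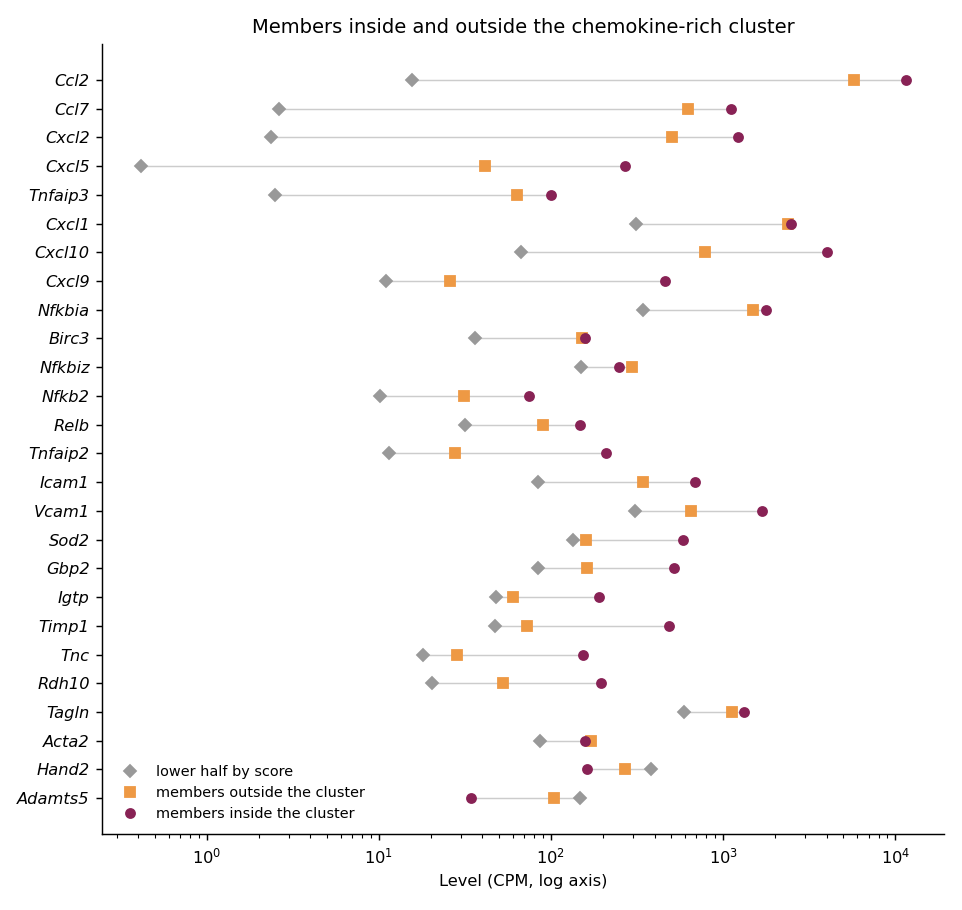
Level in CPM (log axis) of selected genes in low-score HSC, in chemokine-high HSC outside the chemokine-led cluster (233 cells) and inside it (163 cells). Grey lines join the lowest and the highest group and are not intervals. Cxcl1 and Nfkbia are close inside and outside, while Cxcl9 and Cxcl10 are 17.7-fold and 5.16-fold higher inside.

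The other libraries were not used by the rule. Against the score of the lowest member, 38.6473, 118 of 3281 gated cells of the library labelled VitA-Col1a1- passed, 3.60% (exact 95% interval 2.99 to 4.29%). In VitA-Col1a1+ DEN+WAD 48 of 1732 passed, 2.77% (2.05 to 3.66%). In the chow libraries 1 of 231 VitA+Col1a1+ cells, 0.433% (0.0110 to 2.39%), and 1 of 462 VitA-Col1a1+ cells, 0.216% (0.00548 to 1.20%), passed. The share among the VitA+Col1a1+ DEN+WAD cells was 4% by construction. Treatment and library cannot be told apart here, and the chow cells were fewer and deeper, with medians of 24513 and 23031 UMIs against 13346. Thinned to 5000 UMIs per cell, with no cell left out because of the gate and a limit of 38, the shares were 3.81%, 2.89%, 0.433% and 0.216% in the same order, and 4.21% in the VitA+Col1a1+ DEN+WAD library. At full depth the interval of the VitA+ chow cells overlapped that of VitA-Col1a1+ DEN+WAD, and that of the VitA- chow cells lay below it.

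**Figure D3:**
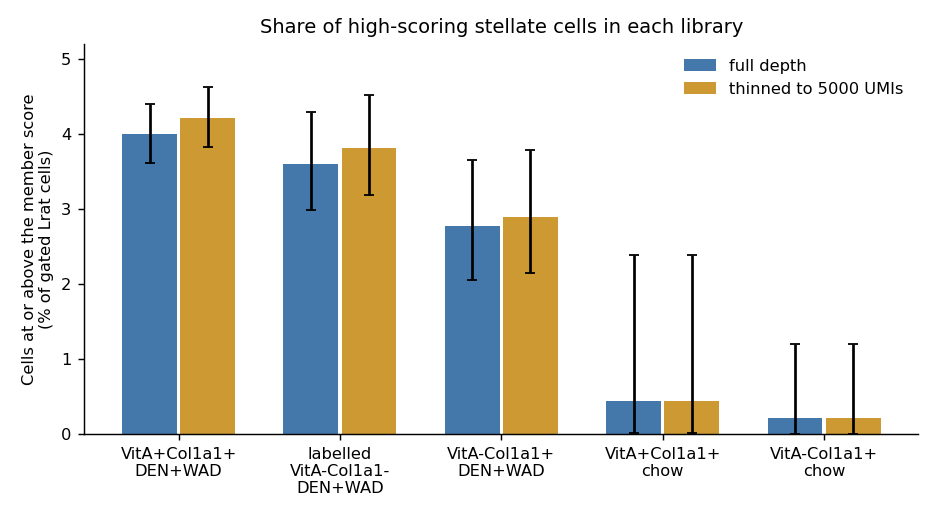
Share of gated HSC at or above the lowest member's score in each of the 5 libraries, in percent, with exact 95% binomial intervals, at full depth and with each cell thinned to 5000 UMIs. The DEN+WAD libraries lie between 2.77 and 4% at full depth and the chow libraries, with 1 such cell each, at 0.433 and 0.216%.

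Summed over all gated cells, Ccl2 was at 616 CPM in the VitA+ and 354 CPM in the VitA- cells of the Col1a1+ DEN+WAD libraries, 543 CPM in the library labelled VitA-Col1a1-, and 190 and 40.2 CPM in the VitA+ and VitA- chow libraries. Cxcl5 and Cxcl9 had 0 UMIs in the 231 VitA+Col1a1+ chow cells, a limit of 1.30% of cells for each, and Cxcl10 stood at 87.3 CPM there against 213 CPM.

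The same cut was then made in the other DEN+WAD libraries, taking the top 4% and the lower 50% by each library's own score. In VitA-Col1a1+ DEN+WAD this gave 69 and 866 cells, with 771 of 9680 genes called higher (7.96%) and 728 lower (7.52%). Of the 462 genes higher in the chemokine-high HSC, 438 could be compared there, and 307 of them were higher (70.1%) and 1 lower. In the library labelled VitA-Col1a1- it gave 131 and 1640 cells, with 485 of 9761 genes higher (4.97%) and 1046 lower (10.7%), and of 447 genes compared 261 were higher (58.4%) and 8 lower. In all 3 libraries 216 genes were higher. Genes lower in chemokine-high HSC recurred in smaller shares, a difference that was not tested: 113 of 264 (42.8%) were lower in VitA-Col1a1+ DEN+WAD and 125 of 246 (50.8%) in the library labelled VitA-Col1a1-, and 81 in all 3.

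The NF-kB list recurred nearly gene for gene. Of its 19 genes, 16 were higher in VitA-Col1a1+ DEN+WAD (median ratio 2.14), 15 in the library labelled VitA-Col1a1- (2.88), and 14 in all 3 libraries. Nfkbia had ratios of 4.74, 4.13 and 4.58 in VitA+Col1a1+ DEN+WAD, VitA-Col1a1+ DEN+WAD and the library labelled VitA-Col1a1-. In that order Cxcl10 had 32.9, 62.1 and 78.3, Cxcl1 7.78, 4.22 and 5.05, Icam1 5.88, 4.61 and 5.05, and Csf1 3.01, 2.91 and 3.52. Vcam1 had 3.58, 3.51 and 3.17, and Hand2 0.584, 0.496 and 0.580. The score genes held too when each was measured in cells chosen without it: Cxcl2 had ratios of 19.2 and 60.8 in the other libraries, Cxcl5 13.5 and 14.2, Ccl2 34.2 and 33.3, Ccl7 82.6 and 44.6, and Tnfaip3 9.53 and 8.21.

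**Figure D4:**
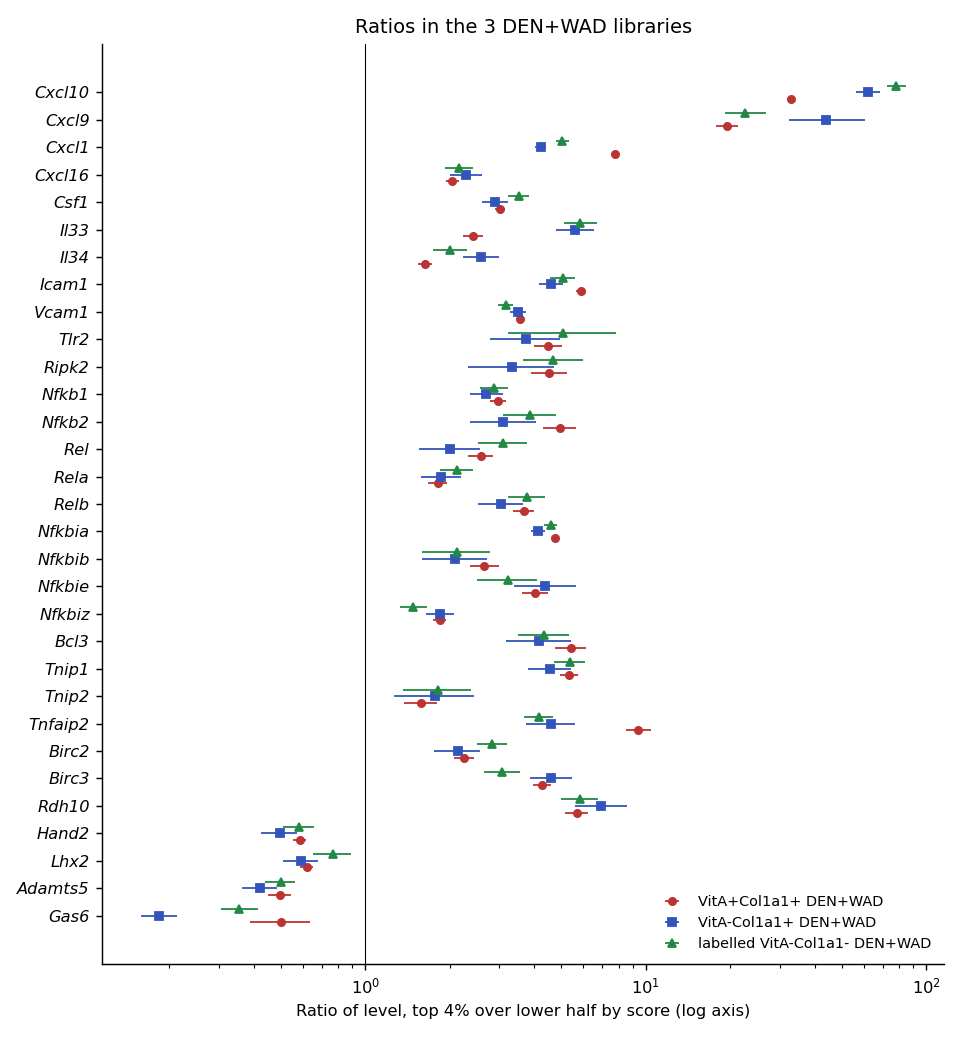
Ratio of the top 4% to the lower 50% by score (log axis) for selected genes in the 3 DEN+WAD libraries, with exact 95% intervals. Nfkbia lies at 4.74, 4.13 and 4.58, and Hand2 below 1 in all 3.

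Some genes differed between libraries. Heat shock genes, with none of 12 called in the chemokine-high HSC, were higher in 7 of 12 in VitA-Col1a1+ DEN+WAD (median ratio 1.55) and in 6 of 12 in the library labelled VitA-Col1a1- (1.51). Hspa1a had ratios of 1.0, 1.63 and 1.40 in the 3 libraries. Gadd45b, 3.01-fold higher in VitA+Col1a1+ DEN+WAD, had ratios of 1.08 and 1.43 elsewhere, and Icosl, at 33.5, had 1.0 and 1.57. Il33 was higher elsewhere, at 5.60 and 5.84 against 2.43. Interferon-response genes were higher in 15 of 19 in VitA-Col1a1+ DEN+WAD and in 11 of 19 in the library labelled VitA-Col1a1-, against 8 of 19. These differences were not tested.

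The library labelled VitA-Col1a1- also held cells of other kinds, which allowed the ligands to be placed beside their receptors. It had 566 cells with Ptprc and neither Lrat nor Pecam1, and 1610 cells with Pecam1 alone. Ccl2 stood at 543 CPM in its gated HSC, 111 CPM in Pecam1 cells and 150 CPM in Ptprc cells. Ccl7 stood at 72.4, 5.88 and 36.5 CPM, Cxcl1 at 345, 49.5 and 31.7 CPM and Cxcl5 at 16.4, 0.208 and 0.984 CPM. HSC thus held the highest level of these 4 among the 3 kinds. Cxcl2 was the reverse, at 30.1, 30.8 and 629 CPM, highest in Ptprc cells, and Cxcl9 and Cxcl10 were highest in Pecam1 cells, at 395 and 307 CPM against 34.3 and 195 CPM in HSC. Ccr2, the receptor for Ccl2 and Ccl7, stood at 59.9 CPM in Ptprc cells, found in 31.4% of them, against 0.293 CPM and 0.213% of cells in HSC, at median depths of 16421 and 12432 UMIs. Cxcr2, the receptor for Cxcl1, Cxcl2 and Cxcl5, was found in 3 of 566 Ptprc cells and in 7 of 3281 HSC, at 0.295 and 0.158 CPM. Il1b, at 446 CPM, and Tnf, at 40.8 CPM, were in Ptprc cells, with 2.30 and 0.474 CPM in HSC.

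The promoters of the genes that went with the score were read for the letters of 3 motifs, since many of them are known NF-kB or interferon targets. Windows of 300 bases, from 250 before to 50 after the start of each gene, came from RefSeq (GRCm38.p6), and both strands were searched. The kB letters GGNNTTTCC (GGAAANNCC on the other strand) were in 1132 of 19385 windows (5.84%), in 39 of 348 genes called higher (11.2%, exact 95% interval 8.09 to 15%) and in 12 of 220 called lower (5.45%). Among 122 genes higher by 2-fold or more that kept their call without the highest cell, 20 had them (16.4%, 10.3 to 24.2%), and of 12 NF-kB list genes called higher 5 did. The letters GAAANNGAA, part of interferon-response elements, were in 8.40% of all windows, 13.8% of genes called higher and 7.27% of those called lower. The AP-1 letters TGANTCA were in 7.36%, 8.91% and 5.45%. Among the 7374 windows of genes compared, the set from which the called genes come, kB letters were in 6.02%, interferon letters in 7.30% and AP-1 letters in 4.39%, and among the 122 genes higher by 2-fold or more 17.2% held interferon letters and 13.1% AP-1 letters. All 3 motifs were thus more frequent among genes called higher than among genes compared. A match is a run of letters and not a measured binding site.

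The 250 bases before the start are printed for 4 of these genes, to show where the letters stand in the promoters of the most abundant interferon-type chemokine, its genomic neighbor, an adhesion molecule and the most abundant inhibitor. Each is written 5' to 3' on the gene's own strand, and capitals mark kB letters and, in Cxcl10, Cxcl9 and Nfkbia, the interferon letters. They come from chr5:92348890-92349139 (reverse strand), chr5:92328080-92328329 (reverse), chr9:21015690-21015939 (forward) and chr12:55492648-55492897 (reverse).

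Cxcl10: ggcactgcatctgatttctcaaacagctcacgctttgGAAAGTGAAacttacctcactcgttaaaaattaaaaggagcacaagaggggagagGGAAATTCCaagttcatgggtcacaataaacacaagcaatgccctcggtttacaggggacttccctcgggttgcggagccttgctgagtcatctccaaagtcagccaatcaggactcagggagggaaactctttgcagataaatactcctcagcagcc
Cxcl9: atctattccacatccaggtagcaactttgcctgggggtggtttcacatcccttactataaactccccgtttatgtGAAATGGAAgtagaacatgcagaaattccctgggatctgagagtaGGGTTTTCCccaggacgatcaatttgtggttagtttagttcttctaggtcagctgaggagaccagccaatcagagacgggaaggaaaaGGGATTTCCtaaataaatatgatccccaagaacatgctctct
Icam1: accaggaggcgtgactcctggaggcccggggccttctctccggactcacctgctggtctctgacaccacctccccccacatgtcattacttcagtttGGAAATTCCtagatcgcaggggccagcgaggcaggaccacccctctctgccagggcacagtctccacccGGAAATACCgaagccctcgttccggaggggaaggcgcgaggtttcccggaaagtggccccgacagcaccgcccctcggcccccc
Nfkbia: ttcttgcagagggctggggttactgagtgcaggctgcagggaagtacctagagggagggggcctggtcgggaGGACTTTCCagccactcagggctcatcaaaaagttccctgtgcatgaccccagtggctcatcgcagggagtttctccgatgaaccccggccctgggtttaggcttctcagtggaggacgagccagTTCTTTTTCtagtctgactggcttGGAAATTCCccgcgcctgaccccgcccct

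Cxcl10 held 1 run of kB letters and 1 of interferon letters, Cxcl9 held 2 and 1, Nfkbia held 2 and 1, and Icam1 held 2 runs of kB letters. The kB match nearest the start stood 158 bases before it in Cxcl10, 42 in Cxcl9, 84 in Icam1 and 29 in Nfkbia. These are the genes whose levels, in the same order, stood at 2203, 215, 492 and 1626 CPM in the chemokine-high HSC.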

How the data were processed

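Liver cells of 5 groups were sorted and sequenced as droplet libraries. The deposited files hold whole-number UMI counts per gene and cell, which the authors made with Cell Ranger 3.1.0 on mm10, per the labels (the library labelled VitA-Col1a1- has 6.1.2 in its header). The labels name both the v3.1 and the v2 3' kit. Filters on cells before deposit are not given in the sources used here.

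Cells were gated and scored as the report describes, and UMI counts were summed over cells and divided by total UMIs (CPM, scaled to 1000000), with no division by gene length since the reads tag 3' ends. The 396 cells and all gene lists were chosen with earlier results of these data known. Levels carry exact 95% Poisson intervals, ratios conditional binomial and shares Clopper-Pearson intervals, which cover counting error only. A group with 0 UMIs was set to a floor of 3. Depth was 6145748 to 149936344 UMIs per library. Thinning drew 5000 UMIs per cell (seed 7). Outside the gate and score genes, the text names the 15 highest and 10 lowest called genes, leaving out predicted, ribosomal and mitochondrial ones, then the called genes and up to 4 others of each of 19 lists (443 of 447 list genes, marker lists included, matched 1 row) and of 13 marker lists. A few further genes, among them Reln, Adgre1 and Cxcr3, were named after their values were seen. A few listed genes are counted but their values are not reported here. Clusters used 2000 variable genes, 30 components, 15 neighbours and Leiden resolution 1. Tools were Python 3.11.15, scanpy 1.11.5 with igraph 0.11.9, pandas 2.3.3, scipy 1.17.1, numpy 2.4.6 and, for TMM scaling in R 4.3.3, edgeR 4.0.16. The comparison was tested on simulated Poisson counts without variation between cells. That cannot show how calls fare where 1 cell holds most UMIs of a gene. Of 122 named genes 84 matched a RefSeq promoter. Alternatives changed the size of the top group, depth, comparison cells, score genes and weights, scaling, filters and the gate.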

Additional observations from a re-analysis of the deposited data

Results flagged for a closer look

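Serpina1b and Spp1 were called in opposite directions in different libraries, which is why they are listed, and the difference between libraries was not tested. Serpina1b, a hepatocyte protease inhibitor, had a ratio of top 4% to lower 50% of 0.0273 in VitA+Col1a1+ DEN+WAD and of 6.93 in VitA-Col1a1+ DEN+WAD. Spp1, which encodes osteopontin, had 4.92 in VitA+Col1a1+ DEN+WAD, against 0.119 for the library labelled VitA-Col1a1-. In VitA+Col1a1+ DEN+WAD both rested on few cells. Serpina1b was found in 0.505% of chemokine-high and 0.767% of low-score HSC and lost its call without the highest cell, and 98.6% of the Spp1 UMIs came from 1 chemokine-high cell.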

How the results depend on the processing

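The summed NF-kB ratio of chemokine-high to low-score HSC, 3.11, stayed above 1 under each of 18 alternatives. It was 3.82 for the top 2% by score, 2.52 for the top 8%, 3.03 thinned to 5000 UMIs, 2.60 against all other gated cells, 3.16 with TMM scaling and 3.16 without cells above 2 times the median UMIs. With a gene left out of the score it was 2.96 (Cxcl2), 2.74 (Ccl2) and 3.05 (Tnfaip3). In 3 alternatives chosen after seeing the data it was 3.59 for members inside the chemokine-led cluster, 2.73 outside and 3.07 without the highest cell of each gene.

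The counts of genes called, 462 higher and 284 lower, moved more. They were 275 and 106 for the top 8%, 247 and 73 with a filter of 20 CPM, 809 and 539 with no filter, 172 and 42 at 2-fold, 860 and 1118 inside the cluster and 239 and 147 outside. For the top 2% they were 622 and 676, and without Ccl2 in the score 380 and 184. In VitA-Col1a1+ DEN+WAD, thinned to 5000 UMIs, 195 genes were higher and 63 lower in both libraries, against 307 and 113. The shares above the member score stayed within their intervals. The cause of these changes was not tested, beyond the fewer genes or cells that a filter, a thinning or a split leaves.

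Of 2097 values of 117 named genes under the alternatives, 1882 kept direction and call, 183 lost the call and 32, in 15 genes, changed direction. Spp1 was at 0.0463 for the top 2%, 0.40 without Ccl2 in the score, 0.234 with equal weights, 0.0731 without cells of high UMIs, 0.0901 with a gate that also left out macrophage and neutrophil genes, 0.135 without the highest cell and 0.0513 inside the cluster. Thinned, Serpina1b was at 1.47, Serpina1a 1.14, Ahsg 1.09, Apoa2 1.73, Alb 3.79 and Ttr 1.43. Without Ccl2, Mgp was at 2.96, Ackr3 1.21 and Gas6 1.34. With equal weights, Mgp was at 6.56, Plxna4 1.15, Ackr3 1.6, Nr4a2 1.01, Tgfb3 1.05 and Gas6 1.74. Without cells of high UMIs, Apoa1 was at 1.41, Serpina1a 1.11, Ahsg 1.13 and Apoa2 1.22. Without the highest cell, Apoa1 was at 1.07, Ahsg 1.33, Apoa2 1.33 and Ttr 1.01. As a mean over cells Ttr was at 1.15, and outside the cluster Ccl11 was at 0.907.

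No paired analysis was possible because each group has 1 library and the labels give no replicate numbers. There was thus no replicate to leave out, and counting intervals do not cover differences between mice or sorts. Genes under 5 CPM, Il6 among them, were not compared at this depth.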
